A study of Mus musculus with 15 samples.

Results

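The miR-17-92 cluster is a set of microRNAs cut from 1 transcript, and it was followed here in mouse pancreatic acini given caerulein or TLC-S. The members were 7 of the cluster's mature miRNAs in the deposited table: mmu-miR-17-5p, mmu-miR-17-3p, mmu-miR-18a-5p, mmu-miR-19a-3p, mmu-miR-19b-3p, mmu-miR-20a-5p and mmu-miR-92a-3p, written below without the species prefix. They are 7 of 1915 mature miRNAs in that table, of which 867 had a count in some library. All 7 were chosen by name, with earlier results of these data known. All 7 passed the filter on low counts that left 351 miRNAs for testing. The table also lists other arms of these hairpins, which were not members, and none of them passed that filter.

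The 15 small RNA libraries fall into 5 groups of 3: caerulein at 100 nM, caerulein at 100 pM, TLC-S at 250 uM, TLC-S at 62.5 uM, and controls that received no drug. All were acini from the pancreas of C57BL/6 mice aged 7 to 8 weeks. Caerulein is a peptide that acts on cholecystokinin receptors, and the study's design calls 100 nM its pathological and 100 pM its physiological dose. TLC-S is in acinar work the usual short name of the bile acid taurolithocholic acid sulfate. How long the acini were exposed is not stated in the labels. The extract protocol mentions RNA pooled from 3 separate preparations of acini but does not tie pools to libraries, so the spread behind each p-value is that between libraries and may be technical.

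A primary transcript carrying several hairpins is cut by Drosha in the nucleus, and Dicer then releases a short duplex from each hairpin, of which usually 1 arm is loaded into an Argonaute protein. The loaded miRNA pairs with mRNAs mainly through its seed, the stretch near its 5′ end, so miRNAs with the same seed share many targets. The miR-17-92 cluster is known for its transcription under Myc and E2F, for its part in proliferation and survival, and for growth defects when it is lost in mice. It has paralogs, copies made by duplication, on other chromosomes.

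In the GRCm38 annotation of GENCODE M21 the 6 hairpins lie on the plus strand of chromosome 14 within 836 bases, chr14:115043671-115044506. All 6 lie in exon 2 of the lincRNA Mir17hg (chr14:115042879-115046727). The mature sequences are shown because the seeds split the 7 members into families and because several members differ by so few bases that reads can be hard to tell apart. All 7 matched RefSeq entries (GRCm38.p6). Capitals mark the seed, bases 2 to 8 counted from the 5′ end.
miR-17-5p: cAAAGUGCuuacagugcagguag
miR-20a-5p: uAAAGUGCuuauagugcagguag
miR-18a-5p: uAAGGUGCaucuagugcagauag
miR-19a-3p: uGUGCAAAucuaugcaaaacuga
miR-19b-3p: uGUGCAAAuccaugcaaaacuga
miR-92a-3p: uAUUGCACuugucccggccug
miR-17-3p: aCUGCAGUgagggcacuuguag

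miR-17-5p and miR-20a-5p share the seed AAAGUGC and are known to repress cell cycle regulators such as E2F1. They are identical at 21 of 23 bases, and the substitutions, with the base of miR-17-5p first and positions counted from the 5′ end, are C1U and C12U. miR-18a-5p has a seed of its own, AAGGUGC, and miR-17-3p, cut from the other arm of the miR-17 hairpin, has the seed CUGCAGU. miR-19a-3p and miR-19b-3p share the seed GUGCAAA and are known for promoting cell survival in lymphoma models. They are identical at 22 of 23 bases, with the substitution U11C from miR-19a-3p to miR-19b-3p. miR-92a-3p has the seed AUUGCAC and is known from endothelial cells, where it restrains vessel growth.

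Of these members, miR-19b-3p and miR-92a-3p are also encoded in the X-linked miR-106a-363 cluster (minus strand, chrX:52741693-52742567), which has no host gene in the annotation used. The hairpins are shown because the counts cannot be read as chromosome 14 output without them. Capitals mark the mature arm.
Mir19b-1 (chr14:115044305-115044391, plus strand): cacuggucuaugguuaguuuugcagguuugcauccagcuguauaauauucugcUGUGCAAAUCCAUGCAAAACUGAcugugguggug
Mir19b-2 (chrX:52741983-52742066, minus strand): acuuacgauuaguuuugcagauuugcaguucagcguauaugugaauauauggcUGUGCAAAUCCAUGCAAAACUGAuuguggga
Mir92-1 (chr14:115044427-115044506, plus strand): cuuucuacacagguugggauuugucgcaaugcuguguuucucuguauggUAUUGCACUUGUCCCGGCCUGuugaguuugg
Mir92-2 (chrX:52741838-52741928, minus strand): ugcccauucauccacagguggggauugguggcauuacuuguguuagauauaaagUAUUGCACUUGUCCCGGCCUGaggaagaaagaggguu

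Library totals ranged from 535473 to 5087728 counts of mature miRNAs, the lowest and the highest both in caerulein 100 nM. The acinar list of 4, led by miR-148a-3p, held 26.6% to 57.9% of all counts in a library. That was more than each list below, which goes with the labelled tissue. The islet list of 3 held 5.82% to 14.8%. The mesenchymal list of 4 held 0.847% to 1.96%, the endothelial list of 2 held 0.363% to 0.839%, the leukocyte list of 5 held 0.00410% to 0.0117% and the erythrocyte list of 2 held 0.00445% to 0.0165%. In bulk libraries, fewer cells of a type and less RNA per cell cannot be told apart.

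The cluster was a small part of the acinar miRNA pool. Its 7 members together made up 0.266% to 0.631% of all mature miRNA counts, with a median of 0.512% over the 15 libraries. The share was 0.472% ± 0.086 in caerulein 100 nM, 0.358% ± 0.135 in caerulein 100 pM, 0.50% ± 0.144 in TLC-S 250 uM, 0.543% ± 0.051 in TLC-S 62.5 uM and 0.472% ± 0.162 in controls (SD, n = 3 each). The groups overlapped, and the control libraries alone spanned 0.288% to 0.597%. The control library with 0.288% was the one in which miR-148a-3p held 50.5% of all counts, against 17.6% and 18.7% in the other controls. Without the 3 most abundant miRNAs in the total, the share was 0.746% in that control library, against 0.844% and 1.02% in the other controls. What part of its lower share came with miR-148a-3p was not tested. A share depends on what other miRNAs take of the library. Levels are therefore given below as counts per 1000000 (CPM) scaled by TMM, which sets libraries on a common scale from the bulk of the miRNAs. On that scale the 7 members summed to 4483 ± 829 CPM in caerulein 100 nM, 4101 ± 894 CPM in caerulein 100 pM, 4758 ± 1005 CPM in TLC-S 250 uM, 4993 ± 701 CPM in TLC-S 62.5 uM and 4564 ± 577 CPM in controls (SD, n = 3 each).

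miR-92a-3p dominated the cluster. It took 63.1% ± 7.22 of the cluster's counts over all 15 libraries (SD), from 42.9% to 73.0%. miR-20a-5p took 16.4% ± 2.99 and miR-19b-3p 15.7% ± 4.30. miR-17-5p followed with 3.07% ± 0.776 and miR-19a-3p with 1.36% ± 0.283. miR-18a-5p and miR-17-3p were the scarcest, at 0.208% ± 0.110 and 0.177% ± 0.076.

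**Figure D1:**
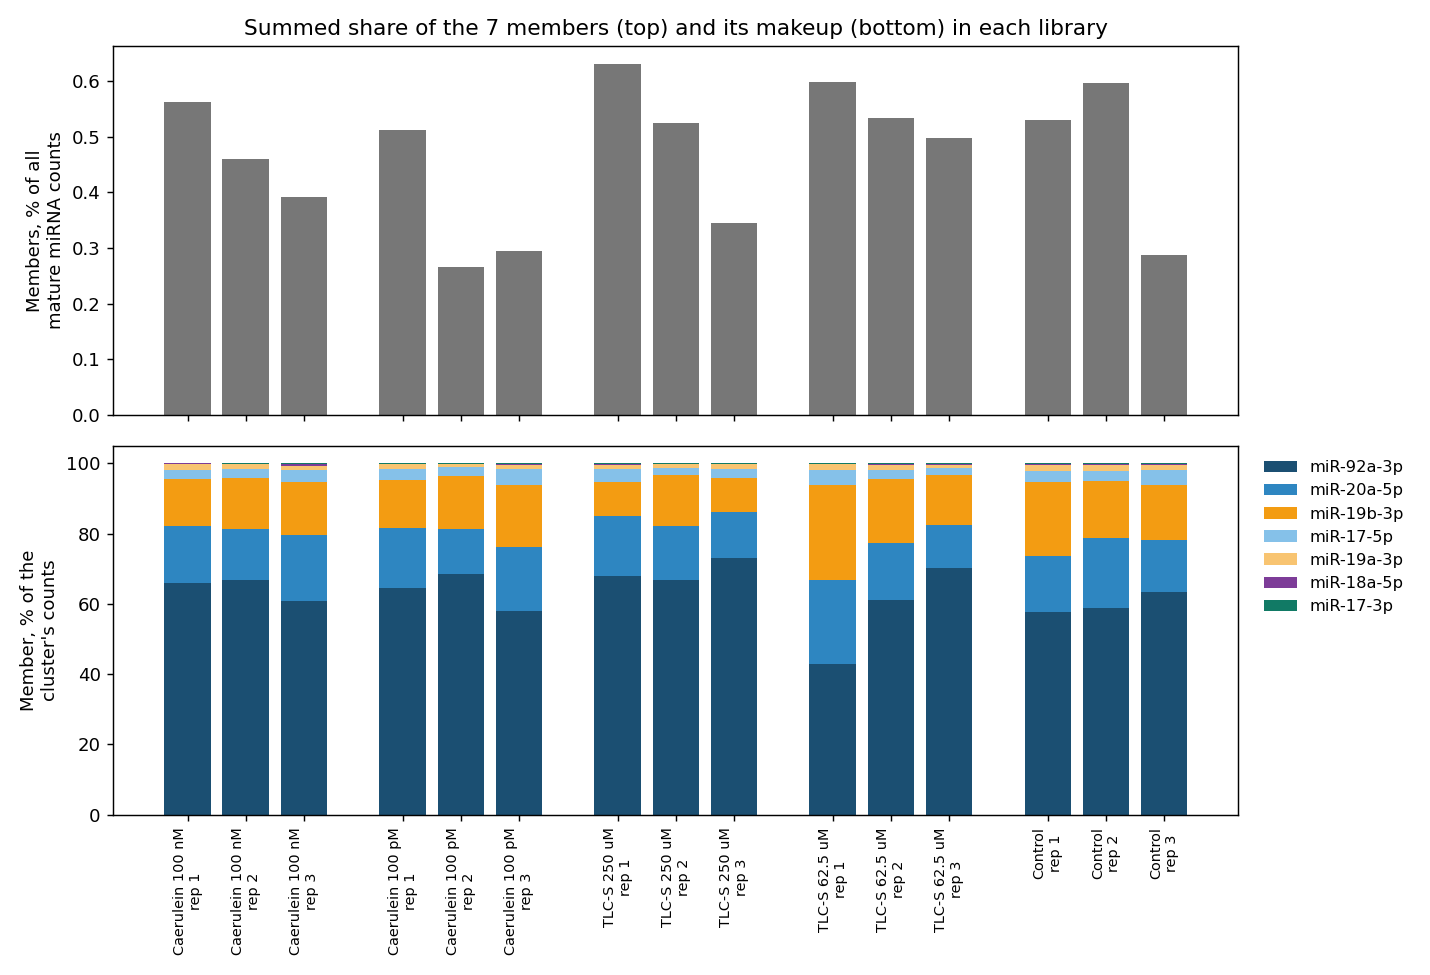
Top: summed counts of the 7 members as a percent of all mature miRNA counts, 1 bar per library, groups from left to right. Bottom: the percent of the cluster's counts held by each member; miR-92a-3p holds 42.9% in TLC-S 62.5 uM replicate 1 and 57.7% to 73.0% in the other 14 libraries.

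Mature miRNAs are 21 to 23 bases long here, so their CPM levels were compared without a length correction; how well the library chemistry captured each sequence was not measured. The mean level over 15 libraries of miR-92a-3p was 3.78 times that of miR-20a-5p, and miR-92a-3p was the higher in 15 of 15 libraries. miR-20a-5p and miR-19b-3p did not separate: their means differed 1.05 times and miR-20a-5p was the higher in 9 of 15 libraries. miR-19b-3p was 5.15 times miR-17-5p, miR-17-5p was 2.23 times miR-19a-3p and miR-19a-3p was 6.58 times miR-18a-5p, each in 15 of 15 libraries. miR-18a-5p and miR-17-3p did not separate, with miR-18a-5p the higher in 8 of 15. By mean level among the 351 miRNAs tested, miR-92a-3p ranked 37, miR-20a-5p 65, miR-19b-3p 67, miR-17-5p 128, miR-19a-3p 159, miR-18a-5p 276 and miR-17-3p 289. So products of the same transcript spread over more than 200 ranks.

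Seed families were unevenly filled. Within the AAAGUGC family the log2 ratio of miR-17-5p to miR-20a-5p was -2.43 ± 0.29 over the 15 libraries (SD), and within the GUGCAAA family the log2 ratio of miR-19a-3p to miR-19b-3p was -3.50 ± 0.37. Each hairpin also had a preferred arm. Over all libraries miR-17-5p held 94.4% of the counts of the mir-17 hairpin and miR-18a-5p 88.8% of those of mir-18a. miR-20a-5p held 99.9% of the counts of mir-20a, and miR-19a-3p 99.7% of those of mir-19a. Of the 7 other arms listed for these hairpins and their X-linked copies, 5 had a count, together 120 counts in all libraries, and none passed the filter on low counts.

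The deposited counts per precursor show how the authors' counting shared the members that have an X-linked copy. For miR-19b-3p, 49.9% of the counts were assigned to mir-19b-1 on chromosome 14 and 50.1% to mir-19b-2, and the first share stayed between 49.6% and 50.0% in every library. The mature sequences are the same, and the split was even in all 15 libraries, so the hairpins of origin cannot be told apart. For miR-92a-3p, 92.1% of the counts were assigned to mir-92a-1 and 7.90% to mir-92a-2, with the first share between 88.5% and 94.6% over libraries. After the last base of miR-92a-3p the hairpins read uug at Mir92-1 and agg at Mir92-2, and after miR-19b-3p they read cug at Mir19b-1 and uug at Mir19b-2. Whether reads reaching into these bases set the assignment was not tested. miRNAs that only the X-linked cluster encodes were almost not seen: of 8 listed, 4 had a count, and where the 7 members had 138264 counts in all libraries, these had 62. miR-20b-5p had 43 of these counts and miR-106a-5p 14. miR-106a-5p differs from miR-17-5p by the substitution U10A (base of miR-17-5p first).
miR-17-5p: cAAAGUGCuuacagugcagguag
miR-106a-5p: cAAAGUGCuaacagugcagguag

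**Figure D2:**
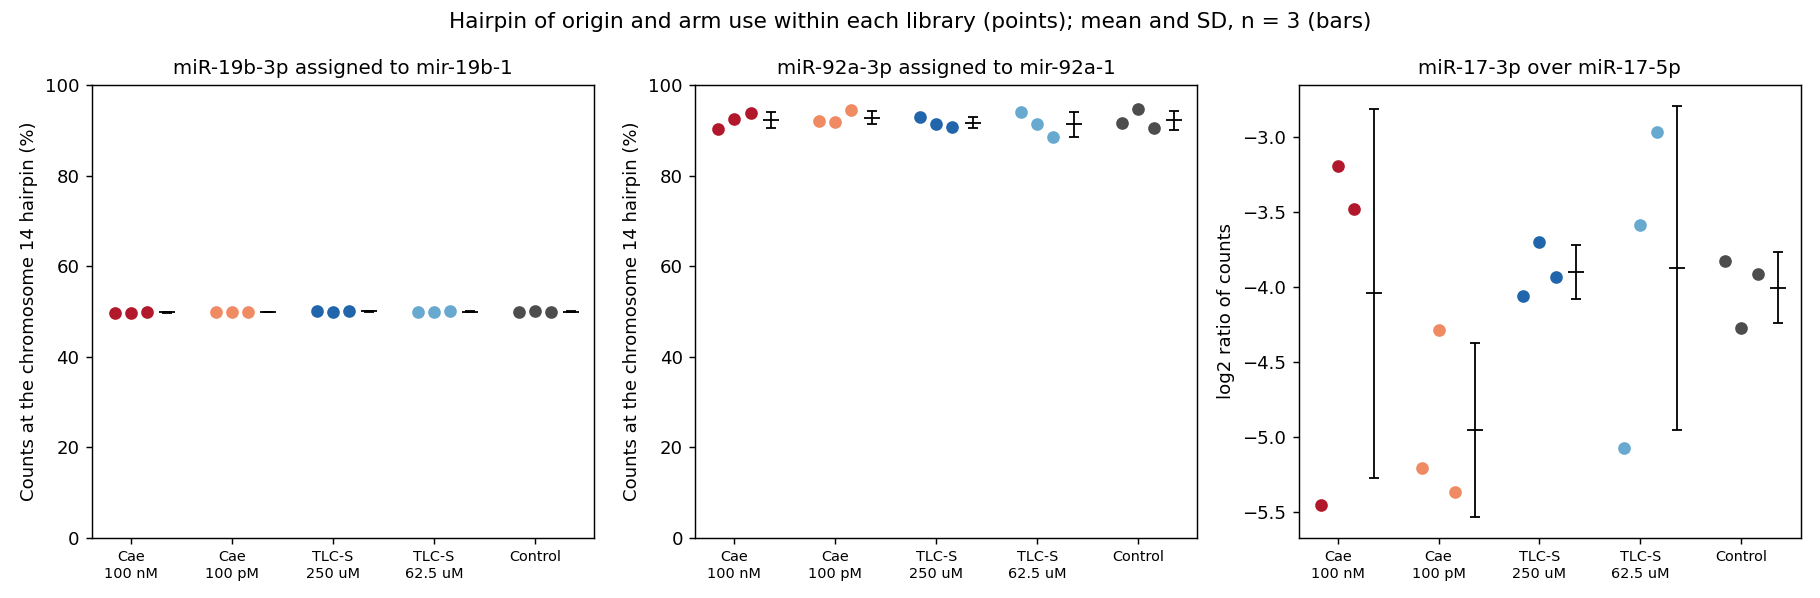
Left and middle: percent of the counts of miR-19b-3p and miR-92a-3p assigned to the chromosome 14 hairpin in each library. Right: log2 ratio of miR-17-3p to miR-17-5p; bars give mean and SD of 3 libraries. miR-19b-3p sits at 49.6% to 50.0% and miR-92a-3p at 88.5% to 94.6% in all groups, while the arm ratio spreads most in caerulein 100 nM and TLC-S 62.5 uM.

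Caerulein at 100 nM left no member past the test. 0 of 7 members passed an adjusted p of 0.05 in edgeR's quasi-likelihood test with Benjamini-Hochberg adjustment over the 351 miRNAs tested, where 0% of all miRNAs did. The lowest adjusted p was 0.984, and 0 members had an unadjusted p under 0.05, against 3.42% of all miRNAs. DESeq2 called 0 members as well. The log2 differences from control ran from -0.34 (miR-19b-3p) to 0.09 (miR-92a-3p); 5 of 7 were below 0, against 47.3% of all miRNAs, and their median was -0.20, against 0.03 for all miRNAs. Without control replicate 2 the median was -0.080, with 4 of 7 below 0.

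miR-17-5p was the only member whose caerulein 100 nM and control libraries did not overlap. Its levels were 139, 103 and 127 CPM in caerulein 100 nM, against 147, 148 and 169 CPM in controls. All 3 treated libraries lay below all 3 controls, as they did for 3.99% of all miRNAs; 2.56% lay higher without overlap. The log2 difference was -0.32 (SE 0.34, 95% interval -1.02 to 0.38). miR-20a-5p, with the same seed, had 870, 630 and 699 CPM in caerulein 100 nM against 757, 997 and 574 CPM in controls, so its groups overlapped. miR-92a-3p had 3553, 2873 and 2287 CPM in caerulein 100 nM against 2738, 2959 and 2489 CPM in controls, again with overlap, and its 95% interval ran from -0.40 to 0.58. The endothelial list, 2 of 2 below 0, held 0.363% to 0.652% of the counts in caerulein 100 nM against 0.626% to 0.839% in controls. These are shares of all counts and not TMM-scaled levels. The leukocyte and mesenchymal lists each had 3 of 4 tested log2 differences below 0. The islet list had 3 of 3 above 0, the acinar list 2 of 4 and the erythrocyte list 1 of 2. Of these markers 0 were called, and their part in the member levels was not tested.

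Caerulein at 100 pM likewise left 0 of 7 members past the threshold in edgeR, where 0% of all miRNAs passed; DESeq2 also called 0. All 7 log2 differences from control were below 0, as were those of 48.7% of all miRNAs, with a median of -0.38 over the members and 0.01 over all miRNAs. This count was already known from earlier results of the same data and is given as a description, with no test. Leaving out caerulein 100 pM replicate 2 or replicate 3 brought it to 6 of 7, and without control replicate 1 the median was -0.23. Of the markers of other cells, 0 were called here, and their directions were mixed. The erythrocyte list had 2 of 2 log2 differences below 0 (miR-451a -0.56, SE 0.30, and miR-144-3p -0.15, SE 0.63). It held 0.00445% to 0.00689% of the counts in caerulein 100 pM against 0.00797% to 0.0127% in controls. The endothelial list, also 2 of 2 below 0, held 0.425% to 0.696% in caerulein 100 pM against 0.626% to 0.839% in controls. These are shares of all counts and not TMM-scaled levels. The islet list had 3 of 3 log2 differences above 0, and the leukocyte list 3 of the 4 tested. The part of these in the member levels was not tested.

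The 2 scarcest members differed most. miR-17-3p had 4.02, 4.31 and 3.45 CPM in caerulein 100 pM against 10.2, 7.48 and 10.99 CPM in controls, from 7, 7 and 3 counts against 21, 20 and 23 counts. All 3 treated libraries were below all 3 controls, as for 4.84% of all miRNAs, while 5.41% lay higher without overlap. No other member separated the groups. Its log2 difference was -1.24 (SE 0.58, 95% interval -2.43 to -0.06) with an unadjusted p = 0.0409 and an adjusted p = 0.722 in edgeR; 6.84% of all miRNAs had an unadjusted p under 0.05. miR-18a-5p had 5.16, 0.62 and 12.6 CPM in caerulein 100 pM against 9.69, 18.3 and 9.56 CPM in controls. One of the treated libraries rested on a single count and another lay among the controls, so the groups overlapped. The log2 difference was -1.19 (SE 0.67, 95% interval -2.58 to 0.20), and -0.65 without caerulein 100 pM replicate 2.

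The abundant members were closer to control. miR-19b-3p averaged 622 ± 91.9 CPM in caerulein 100 pM and 808 ± 194 CPM in controls (SD, n = 3 each), a log2 difference of -0.38 (SE 0.30). miR-19a-3p averaged 53.2 ± 23.8 CPM in caerulein 100 pM and 74.4 ± 15.3 CPM in controls, a log2 difference of -0.48 (SE 0.35). miR-20a-5p averaged 665 ± 217 CPM in caerulein 100 pM and 776 ± 212 CPM in controls, a log2 difference of -0.22 (SE 0.32). For miR-92a-3p the averages were 2613 ± 612 CPM in caerulein 100 pM and 2729 ± 235 CPM in controls, with a log2 difference of -0.06 (SE 0.24). Each of these differences was less than 2 times its standard error. Between the doses, caerulein 100 nM against 100 pM, 0 of 7 members passed, as for 0% of all miRNAs. Here 1 of 7 log2 differences was below 0, against 51.6% of all miRNAs. No member separated the doses, while 3.42% of all miRNAs lay lower and 2.28% higher at 100 nM without overlap. The differences of miR-17-3p (1.02, SE 0.59) and miR-18a-5p (1.20, SE 0.68) were the largest in the fit of all libraries, and no member had an unadjusted p under 0.05, against 1.71% of all miRNAs (DESeq2, 0 called). That of miR-17-3p was 0.49 without caerulein 100 nM replicate 3. That of miR-18a-5p was 0.66 without caerulein 100 pM replicate 2 and 2.11 without caerulein 100 pM replicate 3. The median over the members was 0.15, and ranged from 0.037 without caerulein 100 nM replicate 1 to 0.39 without caerulein 100 pM replicate 1.

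**Figure D3:**
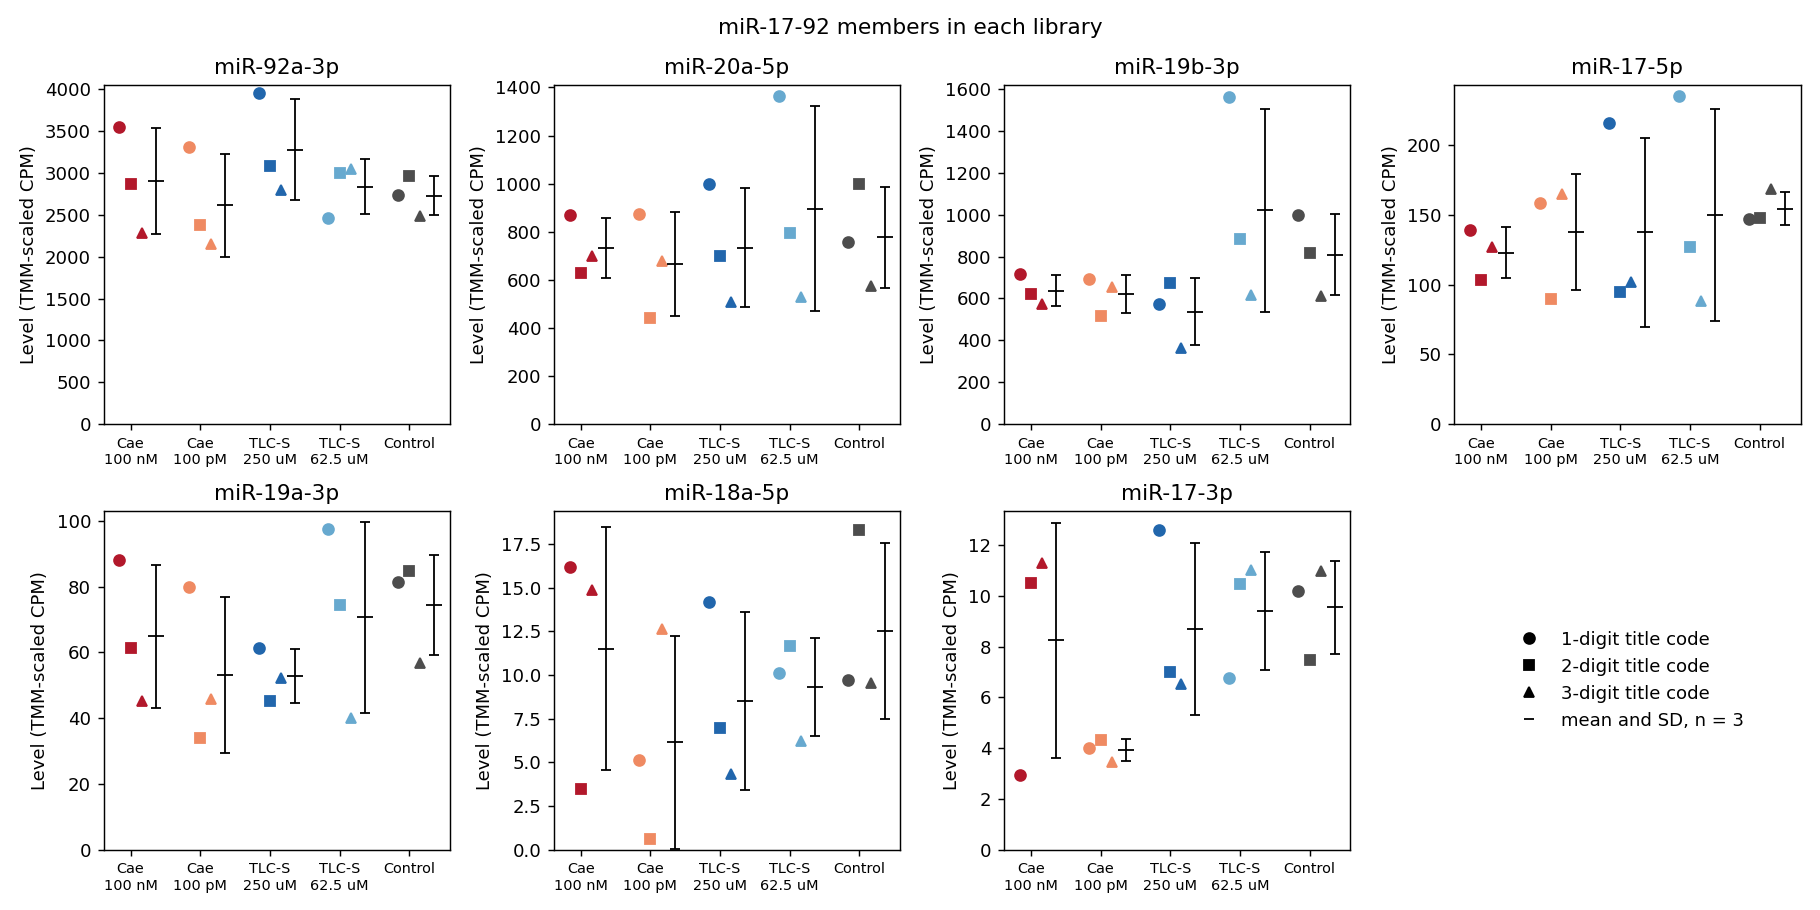
Level of each member in TMM-scaled CPM (linear axes from 0) in each library; symbols give the number of digits in the library's title code, and bars give mean and SD of 3 libraries. miR-17-3p lies at 3.45 to 4.31 CPM in caerulein 100 pM and 7.48 to 10.99 CPM in controls, and miR-19b-3p reaches 1560 CPM in 1 TLC-S 62.5 uM library.

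The ratio of the 2 arms of the miR-17 hairpin is free of scaling between libraries. As the log2 of miR-17-3p over miR-17-5p, with 0.5 added to each count, it was -5.20, -4.29 and -5.37 in caerulein 100 pM against -3.82, -4.27 and -3.91 in controls. The groups did not overlap, although the nearest libraries were almost level. The difference of -0.95 had p = 0.1 in an exact two-sided permutation test, the smallest that 3 against 3 can give, and p = 0.4 after adjustment over 4 comparisons. The ratio averaged -4.04 ± 1.23 in caerulein 100 nM, -3.90 ± 0.18 in TLC-S 250 uM, -3.87 ± 1.08 in TLC-S 62.5 uM and -4.00 ± 0.24 in controls (SD, n = 3 each), with exact permutation p of 1, 0.7 and 0.8.

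TLC-S at 250 uM left 0 of 7 members past the threshold in edgeR, where 0% of all miRNAs passed, and 0 with an unadjusted p under 0.05, against 1.14% of all; DESeq2 called 0 members. In this comparison 6 of 7 log2 differences were below 0, against 55% of all miRNAs, with a median of -0.18, against -0.03 for all. The median was -0.55 without TLC-S 250 uM replicate 1, -0.026 without replicate 2 and -0.036 without replicate 3, when 4 of 7 were below 0. The endothelial list held 0.507% to 0.711% of the counts in TLC-S 250 uM against 0.626% to 0.839% in controls. The acinar list had 4 of 4 log2 differences below 0 (median -0.10). The leukocyte and mesenchymal lists each had 3 of 4 tested above 0. Of these markers 0 were called, and their part in the member levels was not tested. No member separated the 3 treated from the 3 control libraries, while 3.42% of all miRNAs lay lower and 3.7% higher without overlap.

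miR-19b-3p and miR-92a-3p, which sit beside each other in the transcript, had differences of opposite sign. miR-19b-3p had 574, 675 and 362 CPM in TLC-S 250 uM against 998, 817 and 610 CPM in controls, a log2 difference of -0.59 (SE 0.30, 95% interval -1.21 to 0.02, unadjusted p = 0.0592, adjusted p = 0.999 in edgeR). miR-92a-3p had 3955, 3081 and 2800 CPM in TLC-S 250 uM against 2738, 2959 and 2489 CPM in controls, a log2 difference of 0.26 (SE 0.24). Both sets overlapped. Within a library the log2 ratio of miR-19b-3p to miR-92a-3p was -2.78, -2.19 and -2.95 in TLC-S 250 uM against -1.46, -1.86 and -2.03 in controls. These do not overlap, but how often ratios of other miRNAs separate these groups was not counted. The ratio averaged -2.17 ± 0.16 in caerulein 100 nM and -2.06 ± 0.29 in caerulein 100 pM. It averaged -1.58 ± 0.84 in TLC-S 62.5 uM and -1.78 ± 0.29 in controls (SD, n = 3 each). miR-92a-3p took 69.2% ± 3.30 of the cluster's counts in TLC-S 250 uM and 60.0% ± 3.06 in controls (SD, n = 3 each). The ratio of miR-19b-3p to miR-92a-3p was singled out from several member ratios after its values were seen and got no test.

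TLC-S at 62.5 uM also left 0 of 7 members past the threshold in edgeR, where 0.57% of all miRNAs passed; 0 had an unadjusted p under 0.05, against 7.41% of all, and DESeq2 called 0. The log2 differences from control lay between -0.41 (miR-18a-5p) and 0.34 (miR-19b-3p), with 4 of 7 below 0, against 51.3% of all miRNAs, and a median of -0.02, against -0.01. The median ranged from -0.22 without TLC-S 62.5 uM replicate 1 to 0.15 without TLC-S 62.5 uM replicate 3. No member separated the groups, while 5.98% of all miRNAs lay lower and 6.27% higher without overlap. The endothelial list had 2 of 2 log2 differences below 0 (median -0.50). It held 0.478% to 0.695% of the counts in TLC-S 62.5 uM against 0.626% to 0.839% in controls. The acinar list had 4 of 4 below 0 (median -0.41) and the mesenchymal list 4 of 4 above 0 (median 0.11). Of these markers 0 were called, and their part in the member levels was not tested. In this group 1 library stood apart within the cluster: in TLC-S 62.5 uM replicate 1, miR-19b-3p had 1560 CPM and miR-20a-5p 1364 CPM, each the highest of the 15 libraries, while miR-92a-3p had 2463 CPM. The other libraries of the group had 883 and 618 CPM of miR-19b-3p. Without that library the log2 difference of miR-19b-3p from control was -0.10, of the opposite sign.

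Between the TLC-S doses, 250 uM against 62.5 uM, 0 of 7 members passed in edgeR, where 1.14% of all miRNAs did, and DESeq2 called 0. Of the 7 log2 differences 6 were below 0, against 48.4% of all miRNAs, with a median of -0.22. Without TLC-S 250 uM replicate 3 it was 3 of 7 with a median of 0.025, and without TLC-S 62.5 uM replicate 1 it was 4 of 7 with a median of -0.12. The median was -0.50 without TLC-S 250 uM replicate 1, -0.12 without TLC-S 250 uM replicate 2 and -0.39 without TLC-S 62.5 uM replicate 3. No member separated the doses, while 5.98% of all miRNAs lay lower and 5.98% higher without overlap. miR-19b-3p had the member differences' lowest unadjusted p, 0.00485, and it was the 1 member under 0.05, against 8.83% of all miRNAs. Its values were 574, 675 and 362 CPM in TLC-S 250 uM against 1560, 883 and 618 CPM in TLC-S 62.5 uM. One library of the higher dose, at 675 CPM, lay above 1 library of the lower dose, at 618 CPM, so the groups overlapped. The log2 difference was -0.93 (SE 0.30, 95% interval -1.55 to -0.31), with an adjusted p = 0.297 in edgeR, and -0.49 without TLC-S 62.5 uM replicate 1. miR-19a-3p, with the same seed, had a log2 difference of -0.43 (SE 0.35), and miR-92a-3p one of 0.21 (SE 0.24).

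Across all 5 groups, edgeR's F test called 0 of 7 members, where 0.855% of all miRNAs were called. miR-19b-3p had an unadjusted p = 0.0333 and an adjusted p = 0.548; it was the 1 member with an unadjusted p under 0.05, against 7.41% of all miRNAs, and DESeq2 called 0. The other 6 members had adjusted p-values of 0.904 or more.

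**Figure D4:**
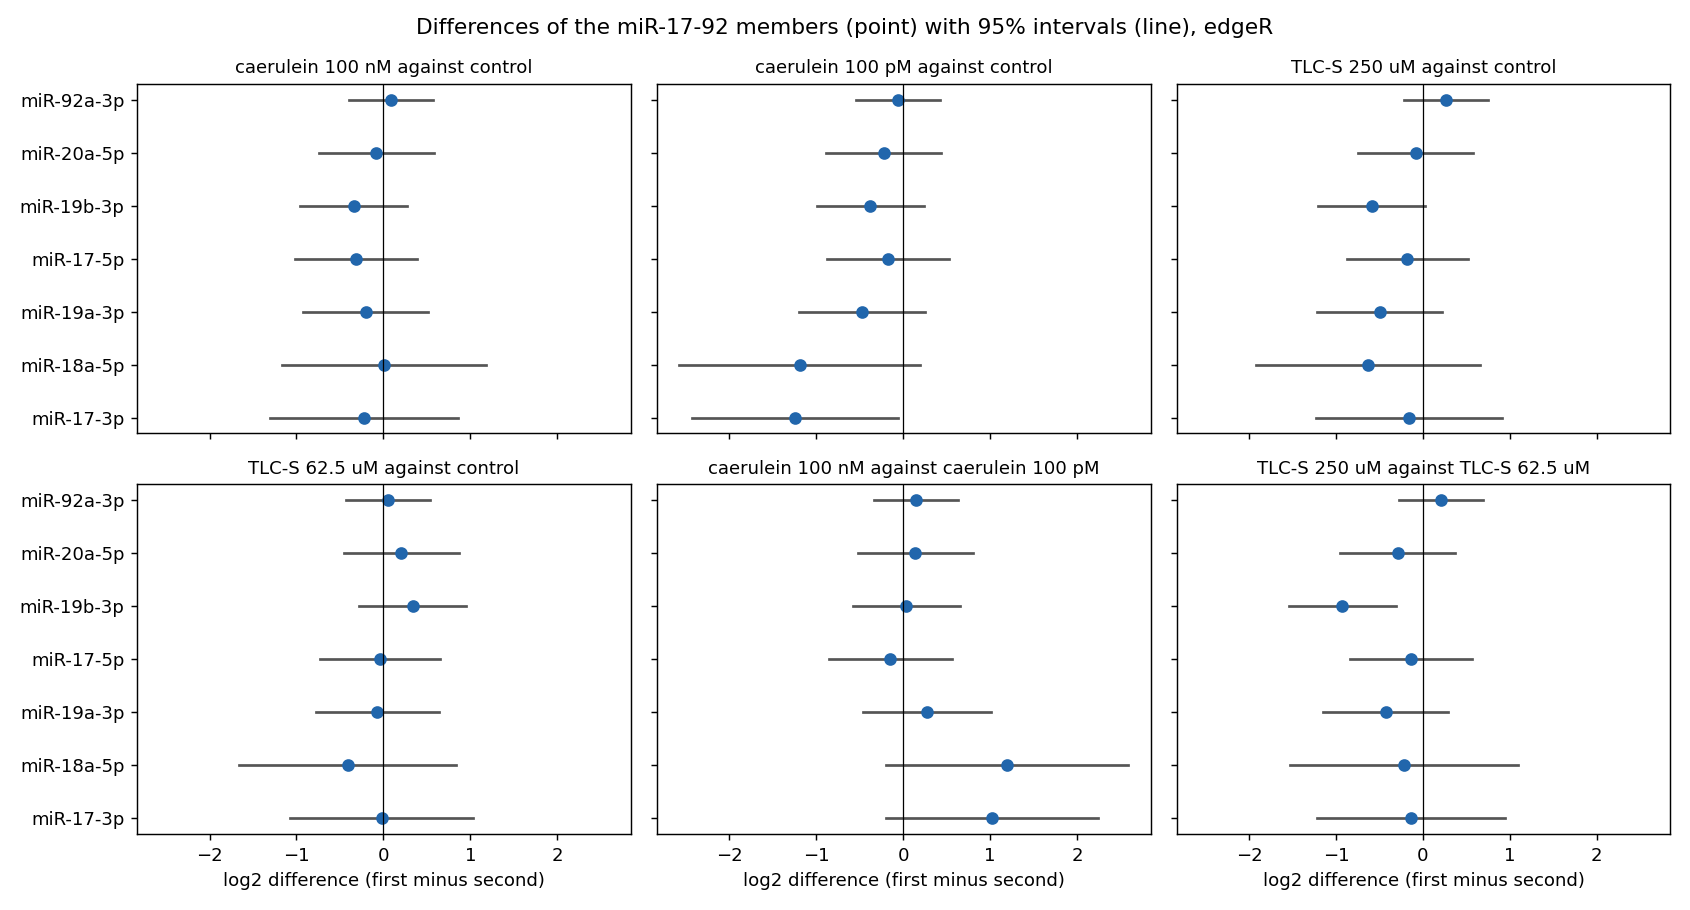
Log2 difference (point) and 95% interval (line) of each member in the 6 comparisons of group pairs, first group minus second. The intervals of miR-92a-3p against control reach from -0.55 to 0.75, and those of miR-18a-5p from -2.58 to 1.18; the intervals that leave out 0 are those of miR-17-3p at caerulein 100 pM and of miR-19b-3p between the TLC-S doses.

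The width of the intervals sets what could be seen in the fit of 5 group means. That fit had no term for the number of digits in the title codes. Any difference between code lengths is therefore part of the spread behind these widths. For miR-92a-3p the SE was 0.24 in each comparison with control and the 4 intervals together ran from -0.55 to 0.75 on the log2 scale. For miR-20a-5p they ran from -0.89 to 0.87, for miR-19b-3p from -1.21 to 0.95, for miR-17-5p from -1.02 to 0.66 and for miR-19a-3p from -1.21 to 0.64. For miR-17-3p they ran from -2.43 to 1.03 and for miR-18a-5p from -2.58 to 1.18. These members had 254 and 324 counts in all 15 libraries. How much of the width of their intervals comes from depth and how much from the spread between libraries was not tested.

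The paralogous miR-106b-25 cluster (minus strand, chr5:138165321-138165818) lies inside the gene Mcm7, which encodes a replication helicase subunit, and has the seeds of miR-17-5p and of miR-92a-3p. Its most abundant products are shown for that shared seed, in capitals.
miR-25-3p: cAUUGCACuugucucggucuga
miR-93-5p: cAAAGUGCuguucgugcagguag
miR-106b-5p: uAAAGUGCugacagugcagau
Over all libraries miR-25-3p averaged 855 ± 111 CPM, miR-93-5p 329 ± 67.5 CPM and miR-106b-5p 139 ± 36.8 CPM (SD, n = 15), so miR-25-3p stood below miR-92a-3p, and miR-106b-5p and miR-17-5p were near each other. Of its 6 listed miRNAs 5 were tested, and over the 6 comparisons edgeR and DESeq2 both called 0 of them, with a lowest adjusted p of 0.467 in edgeR. Only miR-106b-3p between the TLC-S doses had an unadjusted p under 0.05 (log2 difference -0.75, SE 0.32). In caerulein 100 nM against control, the median log2 difference was -0.20 over the miR-17-92 members and 0.08 over these 5. In caerulein 100 pM it was -0.38 over the miR-17-92 members and 0.18 over these 5. The medians were -0.18 (miR-17-92) and 0.00 (miR-106b-25) in TLC-S 250 uM, and -0.02 (miR-17-92) and 0.09 (miR-106b-25) in TLC-S 62.5 uM. The difference between the clusters was not tested.

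The better-counted members stayed closer to each other from library to library than the scarce ones did. On log2 CPM centred on the mean of each miRNA, the root mean square difference between members over the 15 libraries was smallest for miR-19a-3p and miR-20a-5p (0.268), for miR-17-5p and miR-20a-5p (0.275) and for miR-19b-3p and miR-20a-5p (0.311). It was largest for miR-17-3p and miR-18a-5p (1.08). All 10 pairs among the 5 better-counted members lay between 0.268 and 0.523. The 11 pairs with miR-17-3p or miR-18a-5p, the members with the fewest counts, lay between 0.643 and 1.08. The median was 0.643 over all pairs of members and 0.704 over all pairs of tested miRNAs, and the difference was not tested. By the same measure, the tested miRNAs outside the cluster most like its summed level were miR-29a-3p (0.144), miR-30e-5p (0.147), miR-484 (0.185), miR-345-5p (0.198) and miR-93-5p (0.203), against a median of 0.504 over all tested miRNAs. The members themselves lay 0.176 to 0.921 from their own sum (median 0.346). miR-29a-3p and miR-30e-5p were thus nearer to the sum than any member, so such likeness is not particular to the cluster. These libraries share depth and scaling with the members, so the values describe likeness in these 15 libraries only.

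The sample titles carry codes of 1, 2 or 3 digits, each length holding 5 libraries, 1 per group; the labels do not say what the length stands for. The summed level of the 7 members had medians of 3836 CPM with 3-digit codes (3713 to 4346), 4608 CPM with 2-digit codes (3468 to 5032) and 5386 CPM with 1-digit codes (4742 to 5829). The 3-digit and the 1-digit libraries did not overlap in this sum. miR-19a-3p lay at 40.0 to 56.9 CPM with 3-digit codes and at 61.4 to 97.5 CPM with 1-digit codes. miR-20a-5p lay at 508 to 699 CPM with 3-digit codes and at 757 to 1364 CPM with 1-digit codes. The ranges of each other member overlapped. The share of all miRNAs that separate these code lengths was not counted, so how unusual this is cannot be said. An edgeR fit with code length as a term was added after seeing the data. In it 3 of 7 members were called lower with 3-digit than with 1-digit codes at an adjusted p under 0.05. Of all miRNAs, 7.12% were called lower. The 3 members were miR-19a-3p (log2 difference -0.76, SE 0.22, adjusted p = 0.0261), miR-20a-5p (-0.68, SE 0.20, adjusted p = 0.0272) and miR-19b-3p (-0.62, SE 0.19, adjusted p = 0.0325). Of the 7 members 6 had a log2 difference below 0, against 53.6% of all miRNAs, and their median was -0.47, against -0.03 over all miRNAs. The F test over the 3 code lengths called 0 of 7 members, with a lowest adjusted p of 0.0598, where 6.55% of all miRNAs passed.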

How the data were processed

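RNA was prepared with a mirVana kit and the small RNA libraries were read on an Illumina machine, per the labels' protocols. The submitters' processing notes name cutadapt, Bowtie, GRCm38 and mm10, without versions or the program that counted. Values per mature miRNA are estimated counts (expected counts) as deposited by the authors, in whole numbers, each within 0.5 of the sum over its precursors in a second deposited file. Among precursor values above 0, 74.0% were whole (tolerance 1e-06) and the others fractional, so reads fitting more than 1 precursor may have been divided. The authors' deposited RPM, summed per mature miRNA, served for alternatives only.

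Groups came from the sample titles, and replicates were numbered in accession order. All 15 libraries entered 1 fit of 5 group means on the whole table in edgeR 4.0.16 (R 4.3.3): TMM scaling, filterByExpr with a minimum count of 10 and a minimum total of 15, the functions glmQLFit and glmQLFTest, Benjamini-Hochberg over the 351 miRNAs tested, threshold 0.05. CPM are TMM-scaled; the SE of a log2 difference was derived from the F statistic. The script was tested on simulated data. The arm ratio had an exact permutation test (SciPy 1.17.1). Replicates differed beyond counting noise (chi-square per degree of freedom 54.9 to 1657), so none was taken as a second count of the same library. Whether they come from separate preparations of acini cannot be read from this value. Alternatives were other scalings, other filters, DESeq2 1.42.0, limma 3.58.1 on log2 RPM (pseudocounts 1 and 10), a replicate block, fits of each pair of groups by itself, and fits without 1 library. Members, lists and tests were chosen with earlier results of these data known. Named miRNAs are the 7 members, up to 4 tested miRNAs with the highest mean level in each related list, and the 5 most like the summed members. Reads were not tagged by molecule.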

Additional observations from a re-analysis of the deposited data

How the results depend on the processing

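The count of members called was 0 in each of the 7 tests under every alternative run, and over 617 member differences the lowest adjusted p was 0.0580, for miR-19b-3p between the TLC-S doses without TLC-S 62.5 uM replicate 3. In 53 of these values, over 23 differences, the sign turned; the cause was not tested. For miR-18a-5p, caerulein 100 nM against control, the log2 difference was -0.023 with RLE size factors, -0.013 with no filter, -0.049 with DESeq2, -0.21 and -0.084 with limma at pseudocounts 1 and 10, and -0.060 with the replicate block. For miR-17-3p, TLC-S 62.5 uM against control, it was 0.0004 with RLE, 0.13 with library totals, 0.0003 with DESeq2, and 0.097 and 0.059 with limma. miR-17-5p had 0.066 with library totals in TLC-S 62.5 uM against control, and, between the caerulein doses, 0.12 with library totals and 0.18 and 0.16 with limma. miR-20a-5p had 0.027 and 0.025 with limma in caerulein 100 nM against control. The arm ratio difference in caerulein 100 nM was 0.0012 with a pseudocount of 1. Library totals moved the median of all miRNAs by -0.24 in caerulein 100 pM against control and by 0.29 between the caerulein doses.

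Leaving out 1 library at a time gave these ranges where the sign turned. In caerulein 100 nM against control, miR-17-3p ranged from -0.77 to 0.23, miR-18a-5p from -0.19 to 0.41, miR-19a-3p from -0.50 to 0.019, miR-20a-5p from -0.24 to 0.16, miR-92a-3p from -0.065 to 0.23 and the arm ratio from -0.46 to 0.67. In caerulein 100 pM against control, miR-17-5p ranged from -0.31 to 0.012 and miR-92a-3p from -0.22 to 0.073. In TLC-S 250 uM against control, miR-17-3p ranged from -0.43 to 0.0029, miR-17-5p from -0.59 to 0.048, miR-20a-5p from -0.31 to 0.15 and the arm ratio from -0.029 to 0.20. In TLC-S 62.5 uM against control, miR-17-3p ranged from -0.19 to 0.19, miR-17-5p from -0.51 to 0.17, miR-19a-3p from -0.36 to 0.15, miR-19b-3p from -0.097 to 0.55, miR-20a-5p from -0.22 to 0.42, miR-92a-3p from -0.050 to 0.17 and the arm ratio from -0.32 to 0.73. Between the caerulein doses, miR-17-5p ranged from -0.32 to 0.019, miR-19b-3p from -0.017 to 0.13 and miR-20a-5p from -0.021 to 0.39. Between the TLC-S doses, miR-17-3p ranged from -0.42 to 0.025, miR-17-5p from -0.53 to 0.32, miR-18a-5p from -0.70 to 0.13 and miR-20a-5p from -0.51 to 0.14.

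Over all miRNAs tested, the count called in TLC-S 62.5 uM against control was 2 and became 1 with library totals, 5 with no filter, 4 with DESeq2, 0 and 1 with limma, 0 in the 2 groups alone and 1 to 2 without 1 library. Between the TLC-S doses the 4 became 2 with RLE, 1 at a mean of at least 10 CPM, 2 with limma at pseudocount 10 and 1 to 2 without 1 library. For the F test the 3 became 10 with no filter, 1 at a mean of at least 10 CPM, 7 with DESeq2 and 1 to 4 without 1 library. In caerulein 100 nM against control the 0 became 1 with DESeq2. Whether libraries with the same number of digits in their title codes belong together was checked: 15 of 30 such pairs had a correlation of deviations over 0.1, against 7 of 60 other pairs (medians 0.099 and -0.034). Same-code libraries thus deviated together more often, although 15 pairs did not pass 0.1. The labels do not state a pairing, and the tests between groups reported above used no block. The replicate block called 0 members; over all miRNAs it called 5 in TLC-S 62.5 uM against control and 6 in the F test. Under the block, miR-19b-3p between the TLC-S doses had a log2 difference of -0.88 with an adjusted p = 0.0583 in edgeR. miR-17-3p and miR-18a-5p had the fewest counts.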
